A study of Homo sapiens with 4 samples.

Results

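The polyamine genes described here are 9 named genes that make, degrade and control the polyamines, among 64252 gene identifiers counted in J.gamma1 cells. They were chosen by symbol, as genes of synthesis (ODC1, AMD1, SRM, SMS), of antizyme control (OAZ1, OAZ2, AZIN1), of catabolism (SAT1) and of hypusination (DHPS). Each symbol matched 1 identifier, and all 9 had enough counts to be tested. J.gamma1 was derived from Jurkat, an established human line of T-cell acute lymphoblastic leukemia (T-ALL), and is without the signalling enzyme phospholipase C gamma 1. The 2 shELOVL5 libraries came from J.gamma1 cells with a short hairpin RNA against ELOVL5, an elongase of polyunsaturated fatty acids, and the 2 shNC libraries from the same line with a control hairpin. All 4 libraries thus share the loss of phospholipase C gamma 1, and per the labels they come from 1 cell line. The labels name the target or control of the hairpin and do not say whether each group carried only 1 hairpin. The comparison asks how these genes differ when ELOVL5 is knocked down.

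Polyamines are small positively charged amines that bind nucleic acids and are needed for translation and cell growth. Ornithine decarboxylase makes putrescine from ornithine, and spermidine synthase and spermine synthase then add aminopropyl groups donated by decarboxylated S-adenosylmethionine. Antizymes rise when polyamines are abundant, bind ornithine decarboxylase and send it to the proteasome, and antizyme inhibitors bind the antizymes in its place. Spermidine also donates the group that turns a lysine of the translation factor eIF5A into hypusine. In T cells and their leukemias, MYC is a known activator of several of these genes.

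Total counts per library were 16311139 to 17338719 in shELOVL5 and 16254002 to 17246603 in shNC. ELOVL5 itself had 1255 and 1157 counts in the shELOVL5 libraries, against 5816 and 5664 in the shNC libraries, as the labels say. Of 9 T cell markers, none was at 0 counts, and their summed level was 1563 to 1609 CPM (counts scaled to a common library size by the trimmed mean of M-values, TMM) in shELOVL5 and 1599 to 1608 CPM in shNC. Single T cell markers still moved within that sum, with CD3E and CD3G higher and CD3D, CD247, TRAC and LCK lower in shELOVL5, at log2 fold changes of -0.41 (TRAC, adjusted p = 0.0011) to 0.32 (CD3E, adjusted p = 0.000364). The B cell list summed to 26.9 to 29.8 CPM in shELOVL5 and 40.7 to 47.7 CPM in shNC, nearly all of it CD79A, which was lower (log2 fold change -0.65, adjusted p = 0.00267), while MS4A1 and PAX5 had at most 5 counts in any library. Myeloid markers summed to at most 1.2 CPM in shELOVL5 and 1.68 CPM in shNC, with LYZ and CSF1R at 0. Erythroid markers reached 0.545 CPM in shELOVL5 and 1.06 CPM in shNC, with HBB and ALAS2 at 0, and the epithelial or fibroblast list held 12.4 to 12.9 CPM in shELOVL5 and 11.3 to 11.8 CPM in shNC, with EPCAM, COL1A2 and DCN at 0. Mitochondrial genes took 3.11% to 3.30% of counts in shELOVL5 and 2.62% of counts in both shNC libraries. The part of these marker and mitochondrial levels in the results was not tested. No label says that the replicates were grown separately, and the p-values then reflect only how much these libraries vary, which may be technical.

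Of the 9 polyamine genes, 4 were lower in shELOVL5, none was higher and 5 did not pass. SRM fell most, and AMD1, AZIN1 and OAZ1 fell by smaller amounts. ODC1, SMS and DHPS lay close to their shNC level, while SAT1 and OAZ2 had lower values that did not pass. The test was edgeR's quasi-likelihood test, and a gene passed at a Benjamini-Hochberg adjusted p under 0.05 over all 17461 tested genes. The 4 genes are 44.4% of the 9, where 20.4% of all tested genes passed, 9.22% as higher and 11.2% as lower. The 9 genes were chosen with earlier results of these data known, so this share is a description only. AMD1, AZIN1 and OAZ1 had 2345 or more counts in every library, while all tested genes were filtered at a minimum count of 10. The part of abundance in the share was not tested. Scaled by total counts only, 1933 of all tested genes were higher and 1674 lower, against 1610 higher and 1952 lower with TMM scaling, and 3 of the 9 polyamine genes were lower. The median log2 fold change (shELOVL5 over shNC) was -0.21 over the 9 genes and 0.01 over all tested genes. Levels of the 2 groups did not overlap for 7 of the 9 genes and for 60.1% of all tested genes. Without shELOVL5 replicate 1 or without shELOVL5 replicate 2, 2 of the 9 genes passed as lower, SRM and AZIN1, and against a 1.2-fold change only SRM passed.

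**Figure D1:**
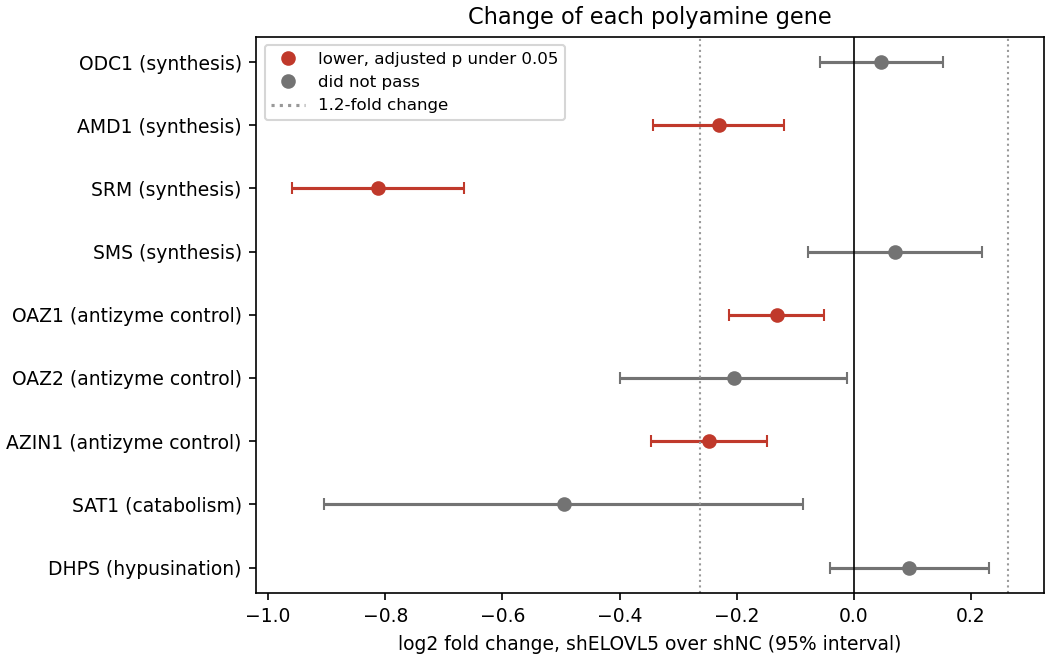
Log2 fold change of each polyamine gene, shELOVL5 over shNC, with its 95% interval from the edgeR fit (2 libraries per group). Red points passed as lower, grey points did not pass, and dotted lines mark a 1.2-fold change. The whole interval of SRM, -0.96 to -0.66, lies below the dotted line, while those of ODC1, SMS and DHPS include 0.

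In the synthesis branch, the enzyme genes moved apart. SRM (ENSG00000116649, GRCh38 chromosome 1, 11054584 to 11060024, minus strand) encodes spermidine synthase, which turns putrescine into spermidine. SRM had 1214 and 1274 counts in shELOVL5 replicates 1 and 2, against 2178 and 2071 in shNC replicates 1 and 2. These correspond to 69.5 and 77.1 CPM in shELOVL5 and 128.2 and 129.1 CPM in shNC. Both shELOVL5 libraries lay far below both shNC libraries, and the gap was several times wider than the spread between the shELOVL5 replicates. SRM averaged 73.3 ± 5.40 CPM in shELOVL5 and 128.6 ± 0.59 CPM in shNC (SD, n = 2 each), a 1.76-fold lower level with a log2 fold change of -0.81 (SE 0.0664, adjusted p = 1.89e-05). SRM ranked 148 of all tested genes by p and 1729 by the size of its change. It stayed lower under all 13 other settings, with log2 fold changes of -0.89 to -0.75 and adjusted p of 6.13e-16 to 0.00192.

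SMS (ENSG00000102172, chromosome X, 21940573 to 21994835, plus strand) encodes spermine synthase, which adds a further aminopropyl group to spermidine. SMS had 1415 and 1367 counts in shELOVL5 and 1295 and 1279 in shNC, or 81.0 and 82.7 CPM in shELOVL5 against 76.2 and 79.7 CPM in shNC. The shELOVL5 values were slightly higher and the groups did not overlap, but the difference did not pass (log2 fold change 0.07, 95% interval -0.08 to 0.22, adjusted p = 0.525). That interval does not reach the change seen for SRM. Set against each other in the same library, the log2 ratio of SRM to SMS counts was -0.22 and -0.10 in shELOVL5 and 0.75 and 0.70 in shNC. In shELOVL5 the SRM count was thus below the SMS count, and in shNC it was above. Counts of genes of unlike length do not rank their levels. Per kilobase of exon, SRM stood at 38.6 ± 2.84 CPM and SMS at 37.9 ± 0.58 CPM in shELOVL5 (SD, n = 2). The difference in this log2 ratio, shELOVL5 minus shNC, was -0.88 (exact two-sided permutation test p = 0.333, which is the smallest p that 2 against 2 libraries can give).

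ODC1 (ENSG00000115758, chromosome 2, 10439968 to 10448504, minus strand) encodes ornithine decarboxylase, which opens the pathway. Its counts were 5073 and 4995 in shELOVL5 and 5037 and 4446 in shNC, or 290.3 and 302.3 CPM in shELOVL5 and 296.5 and 277.1 CPM in shNC. The groups overlapped, with shNC replicate 1 between the shELOVL5 libraries. No difference was detected (log2 fold change 0.05, 95% interval -0.06 to 0.15, adjusted p = 0.552), and the interval leaves out a change of 1.2-fold.

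AMD1 (ENSG00000123505, chromosome 6, 110874770 to 110895713, plus strand) encodes S-adenosylmethionine decarboxylase, the source of the aminopropyl groups. AMD1 had 2488 and 2345 counts in shELOVL5 and 2889 and 2623 in shNC, or 142.4 and 141.9 CPM in shELOVL5 against 170.1 and 163.5 CPM in shNC. Both shELOVL5 libraries were below both shNC libraries. AMD1 averaged 142.1 ± 0.32 CPM in shELOVL5 and 166.8 ± 4.68 CPM in shNC (SD, n = 2 each), 1.17-fold lower, with a log2 fold change of -0.23 (SE 0.0504, adjusted p = 0.00901). This call was lost without shELOVL5 replicate 1 (adjusted p = 0.058) and without shELOVL5 replicate 2 (adjusted p = 0.0638). The log2 ratio of ODC1 to AMD1 counts was 1.03 and 1.09 in shELOVL5 and 0.80 and 0.76 in shNC, a difference of 0.28 with no overlap (exact two-sided permutation test p = 0.333).

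**Figure D2:**
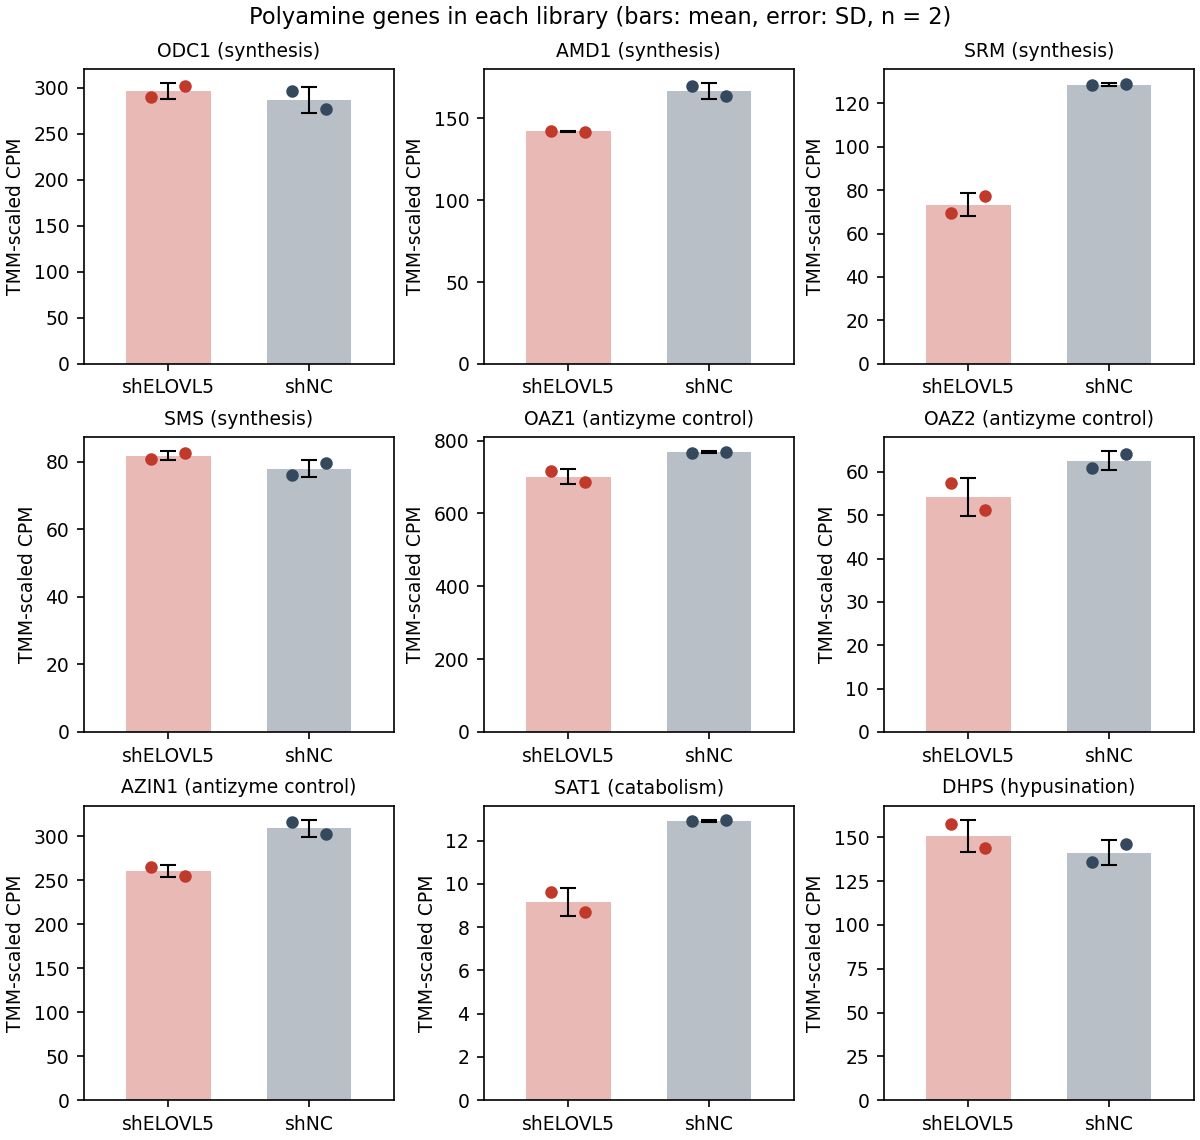
TMM-scaled CPM of the 9 polyamine genes in each library (points), with the group mean (bars) and SD (error bars, n = 2), shELOVL5 left and shNC right in each panel. SRM shows the widest gap for its level, 73.3 against 128.6 CPM, and the points of ODC1 and of DHPS overlap between groups.

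Because SRM and ODC1 are textbook MYC targets, and MYC binds the letters CACGTG (the E-box), the promoter windows of the genes were read from RefSeq (GRCh38.p14), each from 250 bases before to 50 bases after an annotated start. Windows from the table were read for 8 of the 9 genes, 11 windows in all. None was read for AZIN1, so its promoter was not searched for either element below. CACGTG, which reads the same on both strands, occurred in 2 of these 8 genes, SRM and ODC1, against 8.77% of all 27305 genes in the table and 7.26% of all 35116 windows. In SRM its first base lay 199 bases before the start. The window of the more upstream ODC1 start held none. The other ODC1 window held 2, at chr2:10448024-10448053 and chr2:10447990-10448019 within the 30-base stretches shown, both inside intron 1 of an ODC1 transcript in GENCODE release 29 and overlapping none of its annotated ODC1 exons. TGATGNAA, the C/EBP-ATF element that ATF4 binds, was searched on both strands, occurred in none of the 8 genes and was present in 4.46% of all genes and 3.62% of all windows. CACGTG thus stood in the gene that fell most and also in ODC1, for which no difference was detected. It was absent from the windows of AMD1 and OAZ1, which were lower, and was not looked for in AZIN1, which was also lower. The match of letters is a description only. The 250 bases before the SRM start (chr1:11060019-11060268, minus strand) and both ODC1 stretches (minus strand) are shown because they carry the element, with CACGTG in capitals.
SRM: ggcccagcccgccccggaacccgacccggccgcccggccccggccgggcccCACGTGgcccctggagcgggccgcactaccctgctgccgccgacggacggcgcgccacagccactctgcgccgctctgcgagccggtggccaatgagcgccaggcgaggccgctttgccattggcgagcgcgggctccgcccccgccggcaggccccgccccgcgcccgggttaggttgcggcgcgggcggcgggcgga
ODC1 first element: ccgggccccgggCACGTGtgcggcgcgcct
ODC1 second element: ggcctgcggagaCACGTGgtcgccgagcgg

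The genes of antizyme control were all at lower values in shELOVL5, and OAZ1 and AZIN1 passed. OAZ1 (ENSG00000104904, chromosome 19, 2269509 to 2273490, plus strand) encodes antizyme 1, the main antizyme. OAZ1 had 12513 and 11329 counts in shELOVL5 and 13021 and 12347 in shNC, or 716.0 and 685.7 CPM in shELOVL5 against 766.5 and 769.4 CPM in shNC. The groups did not overlap, though the shELOVL5 replicates differed more from each other than the shNC replicates did. OAZ1 was 1.10-fold lower, and its log2 fold change was -0.13 (SE 0.0363, adjusted p = 0.0268). The call did not hold without shELOVL5 replicate 1 (adjusted p = 0.0559) or replicate 2 (0.222), with scaling by total counts only (0.0802) or with no low-count filter (0.0695).

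OAZ2 (ENSG00000180304, chromosome 15, 64687573 to 64703281, minus strand) encodes antizyme 2, a less abundant relative. Its counts were 1002 and 844 in shELOVL5 and 1036 and 1028 in shNC, or 57.3 and 51.1 CPM in shELOVL5 and 61.0 and 64.1 CPM in shNC. Both shELOVL5 values were below both shNC values, but the difference did not pass (log2 fold change -0.21, 95% interval -0.40 to -0.01, adjusted p = 0.13). A p that misses the threshold does not show that OAZ2 was at its shNC level.

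Counts of antizyme RNA do not measure antizyme protein, since the ribosome must shift its reading frame at a stop codon to make it, and polyamines promote that shift. The shift site is shown for OAZ1 and OAZ2, from GENCODE release 29 transcripts, because it marks the step that RNA counts cannot follow. The stop codon is in capitals, and 34 of the 36 bases are identical between OAZ1 and OAZ2. The site occurred in 7 of 11 OAZ1 transcripts and in 5 of 9 OAZ2 transcripts. In 2 of the 3 coding OAZ1 transcripts and 3 of the 4 coding OAZ2 transcripts the annotation leaves out the first base of this stop codon, which puts the shifted frame in line.
OAZ1: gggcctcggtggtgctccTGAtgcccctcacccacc
OAZ2: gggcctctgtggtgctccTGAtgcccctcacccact

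AZIN1 (ENSG00000155096, chromosome 8, 102826357 to 102893864, minus strand) encodes antizyme inhibitor 1, a relative of ornithine decarboxylase without its activity that binds antizymes. AZIN1 had 4632 and 4216 counts in shELOVL5 and 5364 and 4845 in shNC, or 265.1 and 255.2 CPM in shELOVL5 against 315.8 and 301.9 CPM in shNC. The groups did not overlap. AZIN1 averaged 260.1 ± 7.0 CPM in shELOVL5 and 308.8 ± 9.80 CPM in shNC (SD, n = 2 each), 1.19-fold lower, with a log2 fold change of -0.25 (SE 0.0446, adjusted p = 0.00309). The antizyme gene and the antizyme inhibitor gene were therefore both lower in the same libraries. The log2 ratio of ODC1 to the sum of OAZ1 and OAZ2 counts was -1.41 and -1.29 in shELOVL5 and -1.48 and -1.59 in shNC, higher by 0.19 with no overlap (exact two-sided permutation test p = 0.333).

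SAT1 (ENSG00000130066, chromosome X, 23783173 to 23786226, plus strand) encodes spermidine/spermine acetyltransferase, which marks polyamines for export or breakdown. It had the lowest counts of the 9 genes, 168 and 144 in shELOVL5 and 219 and 208 in shNC, or 9.61 and 8.72 CPM in shELOVL5 and 12.9 and 13.0 CPM in shNC. Both shELOVL5 libraries were lower, yet the difference did not pass (log2 fold change -0.50, 95% interval -0.90 to -0.09, adjusted p = 0.0872), and it passed under none of the 13 other settings (adjusted p = 0.0809 to 0.327). Its fold change is the second largest of the 9 genes and its interval is the widest. The log2 ratio of SAT1 to the sum of SRM and SMS counts overlapped between the groups, at -3.97 and -4.20 in shELOVL5 and -3.99 and -4.01 in shNC (exact two-sided permutation test p = 1).

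DHPS (ENSG00000095059, chromosome 19, 12675717 to 12681902, minus strand) encodes deoxyhypusine synthase, which uses spermidine to begin the making of hypusine. DHPS had 2749 and 2381 counts in shELOVL5 and 2312 and 2347 in shNC, or 157.3 and 144.1 CPM in shELOVL5 and 136.1 and 146.3 CPM in shNC. The groups overlapped, and no difference was detected (log2 fold change 0.09, 95% interval -0.04 to 0.23, adjusted p = 0.328). In a bulk library, fewer cells with a transcript and less RNA per cell cannot be told apart for any of these genes.

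Levels of different genes were compared per kilobase of exon (TMM-scaled CPM divided by the union of annotated exons). In shELOVL5, OAZ1 stood highest at 204.0 ± 6.25, then ODC1 at 99.8 ± 2.86, DHPS at 50.1 ± 3.11 and AZIN1 at 40.5 ± 1.09. SRM at 38.6 ± 2.84 and SMS at 37.9 ± 0.58 followed, then AMD1 at 20.2 ± 0.05, OAZ2 at 7.07 ± 0.58 and SAT1 at 3.67 ± 0.25 CPM per kilobase (SD, n = 2). In shNC the order was OAZ1 at 223.5 ± 0.59, ODC1 at 96.6 ± 4.64, SRM at 67.8 ± 0.31, AZIN1 at 48.1 ± 1.53 and DHPS at 47.0 ± 2.39. SMS at 36.1 ± 1.13, AMD1 at 23.7 ± 0.67, OAZ2 at 8.15 ± 0.28 and SAT1 at 5.18 ± 0.02 CPM per kilobase completed it. SRM stood at rank 5 in shELOVL5 and rank 3 in shNC. SRM did not differ beyond the spread from AZIN1 or from SMS, its neighbours in shELOVL5, nor did AZIN1 from DHPS in shNC, and the other neighbours in each order did. With the longest transcript as the length, DHPS stood at rank 3, SRM at rank 4 and AZIN1 at rank 5 in both groups, and SAT1 at rank 8 stood above OAZ2 at rank 9, so these ranks depend on the length used.

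**Figure D3:**
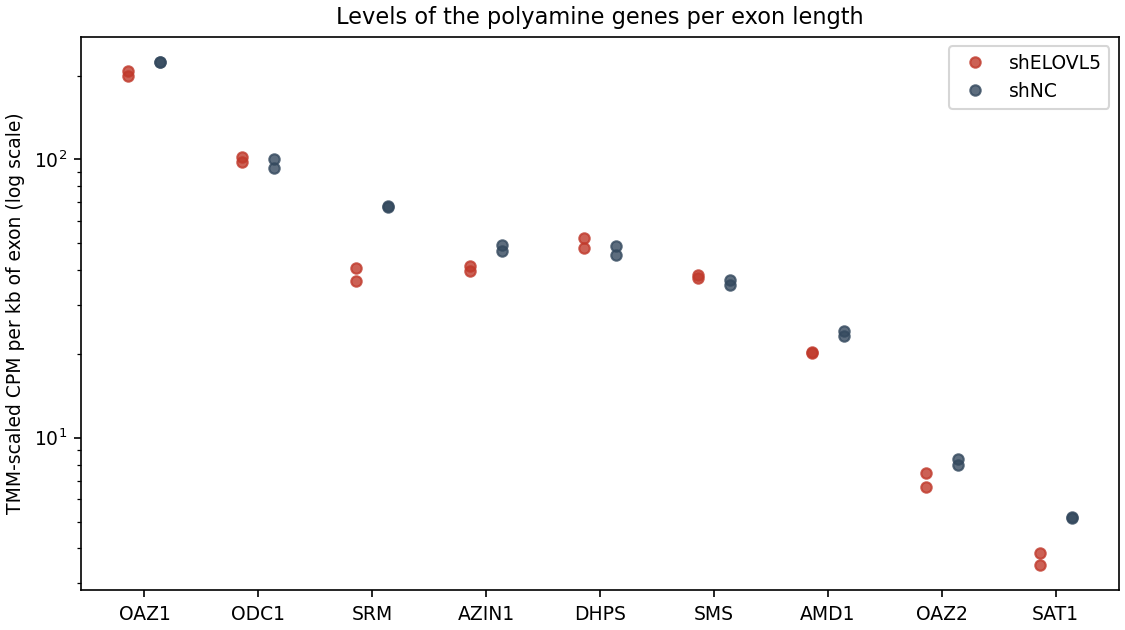
TMM-scaled CPM per kilobase of exon (log axis) of the 9 polyamine genes, 1 point per library, shELOVL5 left and shNC right for each gene, ordered by the shNC mean. With this length OAZ1 is highest and SAT1 lowest in both groups (OAZ2 is lowest with the longest transcript), and SRM lies at 38.6 in shELOVL5 and 67.8 in shNC.

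The genes around this pathway were read from 5 lists of 65 genes in all, of which 54 were tested, 18 were lower and 4 were higher in shELOVL5. Of the tested list genes 33.3% were lower, where 11.2% of all tested genes were, and the 4 higher genes compare with 9.22% of all tested genes. The median log2 fold change of the tested list genes was -0.15, against 0.01 over all tested genes. The lists were chosen with earlier results of these data known, so these shares and this median are a description only. Among 9 genes of polyamine oxidation, the second antizyme inhibitor and hypusination partners, SMOX was lower, EIF5A was higher and 7 did not pass (median 0.26), so that 22.2% passed, near the 20.4% of all tested genes. SMOX, the spermine oxidase gene, had 376 and 361 counts in shELOVL5 and 669 and 666 in shNC (log2 fold change -0.90, SE 0.105, adjusted p = 0.000207). EIF5A, the gene of the factor that receives hypusine, had 19206 and 17469 counts in shELOVL5 and 15558 and 14285 in shNC (log2 fold change 0.26, SE 0.0355, adjusted p = 0.000635). EIF5A was thus higher while DHPS, whose enzyme acts on this factor, was not shown to differ. When tested against a 1.2-fold change, EIF5A did not pass (adjusted p = 0.82). EIF5AL1, a near-identical copy of EIF5A whose reads may be shared with it, was at 0.51 on the same scale and did not pass (adjusted p = 0.0537, or 0.0412 with total counts only and 0.0497 with a filter of 1 CPM). DOHH, the gene of the enzyme that completes hypusine, had a log2 fold change of 0.20 (adjusted p = 0.125).

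Ornithine and arginine supply held 15 genes, of which 12 were tested, 4 were lower and none was higher (median -0.22), so that 33.3% passed. ASS1, an arginine synthesis enzyme gene, had 114 and 83 counts in shELOVL5 and 852 and 758 in shNC (log2 fold change -3.07, adjusted p = 4.96e-07). PYCR1, which encodes a proline synthesis enzyme on a branch that shares a precursor with ornithine, had a log2 fold change of -0.80 (adjusted p = 1.92e-05). GAMT, a creatine synthesis gene, was at -0.50 (adjusted p = 0.00441). ARG2 and OAT, which encode the arginase and the aminotransferase on either side of ornithine, had log2 fold changes of -0.07 and -0.01 and did not pass (adjusted p = 0.717 and 0.944).

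Of 16 genes of S-adenosylmethionine supply and methionine salvage, 14 were tested, 5 were lower and MTR was higher (median -0.21), so that 42.9% passed. MAT2A, the gene of the enzyme that makes S-adenosylmethionine, had 4944 and 4428 counts in shELOVL5 and 5601 and 5164 in shNC (log2 fold change -0.24, SE 0.0441, adjusted p = 0.00335). MTRR, which encodes the reductase that keeps methionine synthase active (-0.52, adjusted p = 0.0185), and AHCYL1, a relative of the S-adenosylhomocysteine hydrolase gene (-0.27, adjusted p = 0.0152), were lower, as were the salvage genes MRI1 (-0.36, adjusted p = 0.0449) and ADI1 (-0.30, adjusted p = 0.0254), which are named here after their values were seen. MRI1 kept its call under only 3 of the 13 other settings, ADI1 and AHCYL1 under 8 each, and MTRR under 9. MTR, the methionine synthase gene, was at 0.30 (adjusted p = 0.00621). The 5 lower genes became 1 without shELOVL5 replicate 1, 2 without shELOVL5 replicate 2 and 2 without shNC replicate 1, and MTR did not pass without shELOVL5 replicate 1 (adjusted p = 0.0781). MTAP, whose enzyme clears the by-product of spermidine and spermine synthesis and which is often deleted in T-ALL, had 0 counts in both shELOVL5 libraries and 0 and 2 in shNC, and was not tested (it is named after its values were seen). A count of 0 allows up to 3 counts per library, or 0.172 to 0.182 CPM in shELOVL5 and 0.177 to 0.187 CPM in shNC, for counting error only.

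Transport showed the largest share of lower genes among these lists, 5 of 9 tested of 14 listed, with 1 higher (median -0.62), so that 66.7% passed. SLC7A1, which encodes a carrier of arginine and ornithine, had 3677 and 3591 counts in shELOVL5 and 5714 and 5438 in shNC (log2 fold change -0.66, SE 0.0423, adjusted p = 3.42e-06). ATP13A2, the gene of a lysosomal polyamine exporter, had 1646 and 1690 counts in shELOVL5 and 2375 and 2182 in shNC (log2 fold change -0.49, SE 0.0609, adjusted p = 0.000314). Its relative ATP13A3, also a polyamine transporter gene, did not pass (0.07, adjusted p = 0.354). SLC3A2 (-1.09, adjusted p = 2.31e-07) and SLC7A5 (-1.12, adjusted p = 3.77e-08), whose products form an amino acid exchanger, were lower, as was SLC18B1 (-0.70, adjusted p = 0.00993, or 0.0595 without shELOVL5 replicate 2), a vesicular polyamine transporter gene. VDAC1, a channel gene of the mitochondrial outer membrane (0.38, adjusted p = 0.00141) was higher. SLC18B1 and VDAC1 are named after their values were seen, and SLC7A2 and CAV1 had 0 counts in every library.

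Of 11 regulators listed, 10 were tested, 3 were lower and 1 was higher (median -0.13), so that 40% passed. MYC, the transcription factor gene named above, had 1780 and 1789 counts in shELOVL5 and 2908 and 2937 in shNC. Its log2 fold change was -0.75 (adjusted p = 1.34e-05), against -0.81 for SRM and 0.05 for ODC1. A link between these changes was not tested. MYCN, a related gene at lower counts, had 238 and 225 counts in shELOVL5 and 429 and 413 in shNC (-0.90, adjusted p = 0.000904). ATF4, which encodes an activator of amino acid synthesis and transport genes, was at -1.29 (adjusted p = 1.95e-08). MXI1, which encodes a protein that competes with MYC for its partner MAX, was higher (0.33, adjusted p = 0.046) but did not pass without any 1 of the 4 libraries (adjusted p = 0.0878 to 0.205). MAX did not pass (0.11, adjusted p = 0.174).

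**Figure D4:**
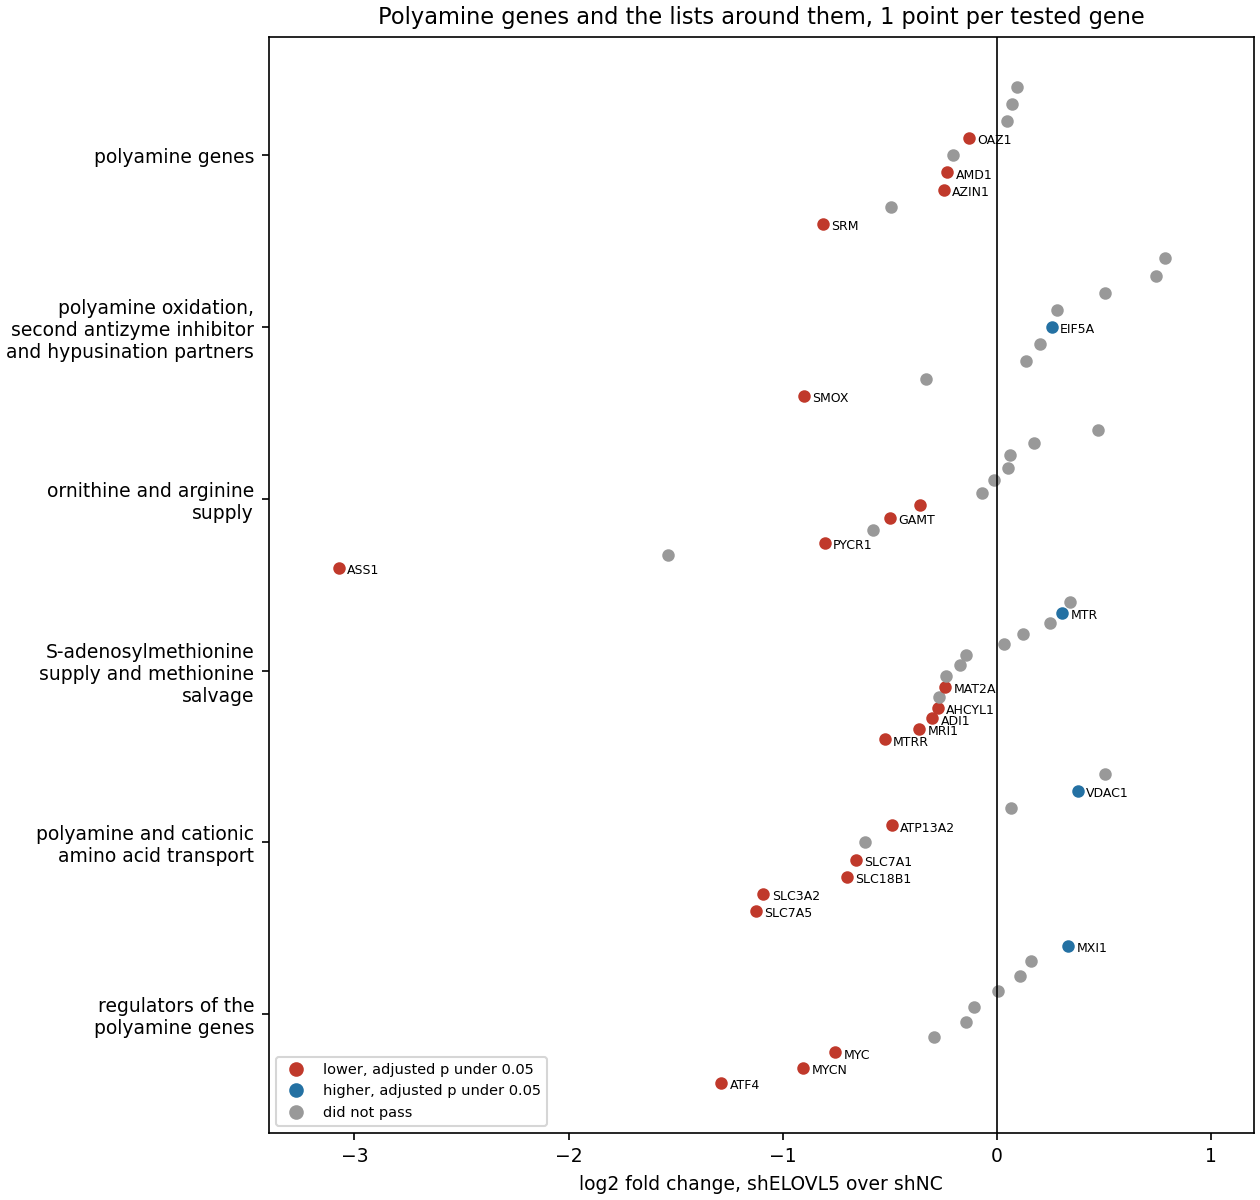
Log2 fold change, shELOVL5 over shNC, of the 9 polyamine genes and of the 54 tested genes of the 5 lists around them, 1 point per gene, spread vertically for legibility. Red points passed as lower, blue as higher and grey did not pass, and most genes that passed are labelled. Lower genes outnumber higher ones in 4 of the 5 lists, and ASS1 stands alone at -3.07.

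The 3 genes nearest to SRM, by the distance of log2 CPM profiles centred over the 4 libraries among 8859 genes that averaged 20 CPM or more, were PGAP2 (distance 0.0692), CSNK2A2 (0.078) and AFF2 (0.0804). PGAP2 had 16.7 and 18.9 CPM in shELOVL5 and 32.8 and 32.4 CPM in shNC, and CSNK2A2 had 99.5 and 104.7 CPM in shELOVL5 and 186.1 and 186.8 CPM in shNC. AFF2 had 83.0 and 92.6 CPM in shELOVL5 and 150.6 and 144.4 CPM in shNC.

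Genes that overlap a polyamine gene were taken from GENCODE release 29. Copies were found by symbol only, as the symbol of a polyamine gene followed by P and digits. Copies of SRM (SRMP1, SRMP2, SRMP3), SMS (SMSP1) and OAZ1 (OAZ1P1) had 0 counts in every library. Of the AMD1 copies only AMD1P3 had any, 0 and 0 in shELOVL5 and 2 and 4 in shNC. These counts do not show how reads that match several genes were assigned. JSRP1 overlaps OAZ1 on the opposite strand over 251 bases and had 649 and 761 counts in shELOVL5 and 1389 and 937 in shNC (log2 fold change -0.75, adjusted p = 0.0776). AC005258.1 overlaps OAZ1 on the same strand over 3966 bases and had 0 counts in every library. AC010422.8 overlaps DHPS on the same strand over 6118 bases and is not among the counted identifiers, so it could not be analysed. WDR83 overlaps DHPS over 116 bases on the opposite strand, with 501 and 472 counts in shELOVL5 and 466 and 590 in shNC (adjusted p = 0.467). AZIN1-AS1, antisense to AZIN1, had 47 and 33 counts in shELOVL5 and 18 and 23 in shNC (log2 fold change 0.91, adjusted p = 0.162). The sources used here do not say whether counting used strand, so reads of these overlapping pairs cannot be told apart.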

How the data were processed

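RNA was sequenced from 2 shELOVL5 and 2 shNC libraries of J.gamma1 cells, assigned to groups and replicate numbers by their titles. The deposited table holds whole-number counts per gene, not normalized. Per the submitters' processing notes, HISAT2 2.2.0, StringTie and build hg38 were used. Annotation, counting step and strand setting were not given in the sources used here. Names came from a table that matched 56105 of 64252 identifiers. Coordinates and lengths came from GENCODE release 29 (GRCh38).

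Counts were tested with edgeR 4.0.16 in R 4.3.3 (filterByExpr with a minimum count of 10, TMM scaling, glmQLFit with robust=TRUE, glmQLFTest, two-sided, group as the only term), with Benjamini-Hochberg adjustment and a threshold of 0.05. The SE is the absolute log2 fold change divided by the square root of F, and the 95% interval uses the test's degrees of freedom. Alternatives were RLE factors, total counts only, other low-count filters, DESeq2 1.42.0, limma-voom (limma 3.58.1), robust=FALSE, a replicate block, glmTreat at a fold of 1.2, and each library left out. The polyamine genes and the lists were chosen with earlier results of these data known. Named genes were the 9 polyamine genes, ELOVL5, the 4 list members with the smallest p per list or at 0 counts, copies and overlapping genes, and the 3 nearest to SRM. Outside this rule, ARG2, OAT, ATP13A3, MAX, MTAP, MRI1, ADI1, SLC18B1 and VDAC1 were named after their values were seen. A few genes that this rule or the marker lists hold are not reported here.

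Replicates differed beyond sampling noise (chi-square per degree of freedom 5.51 in shELOVL5 and 5.93 in shNC) and were kept as separate libraries. Limits on a count of 0 cover counting error only. Intervals of fold changes come from the edgeR fit, and so also reflect how much the libraries varied. Ratios used counts with no pseudocount, or CPM plus 1 as the alternative.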

Additional observations from a re-analysis of the deposited data

How the results depend on the processing

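SRM kept its direction and stayed past the threshold under all 13 alternatives, and ODC1, SMS, OAZ2, SAT1 and DHPS passed under none of them. AMD1 kept its call under 10 of 13 and OAZ1 under 8. AZIN1 lost its call only against a 1.2-fold change. That test left 1 polyamine gene lower (AMD1 -0.23, adjusted p = 0.957; OAZ1 -0.13, adjusted p = 1; AZIN1 -0.25, adjusted p = 0.863), 0 list genes higher and 10 lower, and 408 higher and 641 lower among all tested genes. OAZ1 was at -0.097 with total counts only and -0.14 with no low-count filter, where 899 genes of the whole table were higher. Total counts only gave 1933 higher and 1674 lower in the whole table, with the median of all log2 fold changes at 0.0417. The cause of these differences was not tested. With 1 library left out, the lower polyamine genes numbered 2 to 4 and the higher ones 0 each time. Log2 fold changes then ranged from -0.27 to -0.20 for AMD1, -0.17 to -0.10 for OAZ1, -0.89 to -0.75 for SRM and -0.29 to -0.22 for AZIN1. List genes were higher in 2 to 3 and lower in 14 to 18 cases, and all tested genes in 696 to 1347 and 1176 to 1616 cases. ODC1 ranged from -0.008 to 0.094 in those fits, so its sign is not settled.

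Replicate numbers do not pair the libraries by the labels, and deviations of same-numbered libraries correlated at -0.0148 over all tested genes. With a replicate block, 4 polyamine genes were again lower and 0 higher, with 1551 higher and 1902 lower in the whole table. The ratios changed by under 0.05 with CPM plus 1. For the other named genes, 280 single results held, 43 lost their call and 2 gained one. SAT1 had the lowest counts of the 9 genes, 144 to 219 per library, and the widest interval.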
